A study of Oryza sativa with 12 samples.

Results

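The loci described here flank SUB1 on rice chromosome 9. They are all loci from Os09g0250000 to Os09g0319999 with a probe that the array does not class as a control, apart from Os09g0286600 (SUB1C) and Os09g0287000 (SUB1B). The interval held 213 such loci, of 29689 with a probe on the array, and expression played no part in the choice. Locus numbers rise along the chromosome, so they give the order of loci but not the distance between them. None of the tables used here gives these loci names, so each is given by its number and no role is assigned to it.

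SUB1 is a cluster of genes for ethylene response factors, the transcription factors through which ethylene trapped around a flooded shoot acts on growth and metabolism. In some of the indica rices that carry it, SUB1A restrains shoot elongation under water and lets plants survive complete submergence. FR13A is a landrace from which this tolerance was bred into other rices. Alleles of neighbouring loci are inherited together with SUB1 unless recombination separates them. SUB1A itself was not analysed here.

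Leaves of FR13A and Goda Heenati rice were sampled in 4 groups, which were FR13A control, FR13A submerged, Goda Heenati control and Goda Heenati submerged, with 3 biological replicates each. Seedlings were 14 d old and grew in a glasshouse. Submerged plants spent 3 d under water 70 cm deep, where leaf tips lay 52.7 ± 2.3 cm below the surface in FR13A and 45.9 ± 2.9 cm in Goda Heenati, and controls stood in a tank without water. Leaves of about 20 plants were combined in a sample, so a value is the mean of a pool, and fewer cells of a type cannot be told apart from less RNA per cell.

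Each of the 12 samples was hybridised to a one-colour array, and between 30265 and 34245 of 42418 probes per array were well above background. Each of the 3 slides carried 1 array per group, so slide and replicate number coincide. On the first slide 1837 to 2406 probes per array were saturated, and on the other slides 0. The 4 leaf transcripts checked, for Rubisco small subunits (Os12g0274700, Os12g0292400) and light-harvesting proteins (Os01g0600900, Os09g0346500), passed on all 12 arrays. The root marker RCc3 (Os02g0662000) reached that level on 6 arrays and the meristem marker OSH1 (Os03g0727000) on 7.

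Values below are levels on a log2 scale, relative to the 75th percentile of the array, and differences are in log2 units with the standard error (SE) of a limma fit over 3 arrays per group. A locus was called at a Benjamini-Hochberg adjusted p under 0.05, over all 22729 genes tested, and a difference of at least 2-fold. Of the 213 loci, 155 were tested, because at least 1 group had every array well above background for a probe of theirs. The other 58 were not tested, and 30 of these were well above background on no array. A locus well above background in 1 group alone was tested only through that group. Its being higher there was therefore partly fixed by the filter. On all 12 arrays 118 loci (55.4%) were well above background, against 59.9% of all loci and probes without a locus. In at least 1 of the 5 comparisons 54 loci were called, and 101 were called in none. The matching count over all genes was not made, so these counts do not set the interval apart. In a single comparison up to 21.8% of all genes were called.

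The first question was how the genotypes differed in the interval. In controls 19 of the 155 loci (12.3%) were called between FR13A and Goda Heenati, 11 higher in FR13A and 8 lower. The share over all genes tested was 8.45%, of which 4.12% were higher and 4.33% lower. In submerged leaves 20 loci (12.9%) were called, 11 higher in FR13A and 9 lower, where the share over all genes was 10.2% (4.93% higher and 5.22% lower). The median absolute difference was 0.40 in controls and 0.45 under submergence, against 0.26 and 0.34 over all genes. The signed medians were 0.03 and -0.10, against 0.03 and 0.01 over all genes, so differences in both directions were about balanced.

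Most of the called loci were called with and without submergence. In both treatments 8 loci were higher in FR13A and 7 lower (3.17% and 3.43% of all genes), and 0 were called in opposite directions. A further 4 were called in controls alone and 5 in submerged leaves alone (1.85% and 3.55% of all genes), which made 24 loci called in either (15.5%, against 12% of all genes). Across the 155 loci, the difference in controls and that in submerged leaves had a Pearson correlation of 0.74 and a Spearman correlation of 0.66. That is a description over loci measured on the same 3 slides, and over all genes Pearson's correlation was 0.84.

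**Figure D1:**
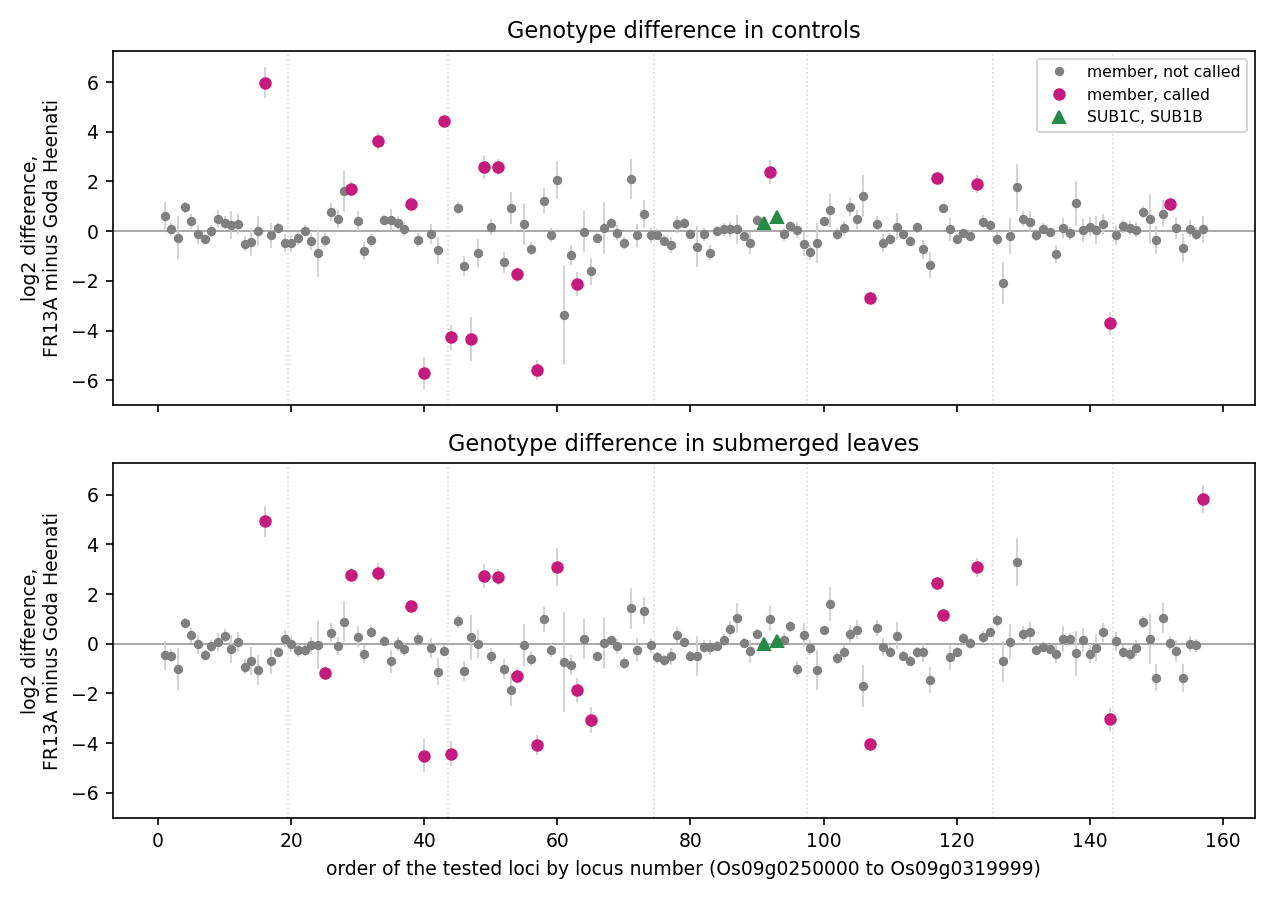
Log2 difference between FR13A and Goda Heenati (y axis, ± SE as vertical lines, n = 3 arrays per group) for the 155 tested loci and SUB1C and SUB1B, in order of locus number (x axis), in controls and in submerged leaves. Dotted lines divide the interval into bins of 10000 locus numbers. Between Os09g0260000 and Os09g0279999 lay 12 of the 19 loci called in controls and 13 of the 20 called under submergence. That stretch held 55 of the 155 tested loci, was singled out after its counts were seen and was not tested.

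Detection separated the genotypes completely at 2 loci. Os09g0255900 was well above background on all 6 FR13A arrays and on no Goda Heenati array. Its levels were -3.52, -2.35 and -2.02 in FR13A controls and -7.48, -9.23 and -9.12 in Goda Heenati controls. Under submergence they were -4.29, -3.68 and -2.32 in FR13A and -8.66, -8.71 and -7.69 in Goda Heenati, so the genotypes did not overlap in either treatment. FR13A was at least 45.9-fold higher in controls (means -2.63 and -8.61, adjusted p = 9.09e-05) and at least 16.6-fold higher under submergence (means -3.43 and -8.35, adjusted p = 0.000357). Such a bound compares the brighter group with the lowest signal that counted as well above background on the dim arrays, or with the dim probe's own signal where that was higher.

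Os09g0274100 showed the opposite pattern, well above background on all 6 Goda Heenati arrays and on no FR13A array. In controls its levels were -9.23, -9.11 and -9.77 in FR13A and -4.27, -2.98 and -4.07 in Goda Heenati. In submerged leaves they were -9.21, -9.39 and -10.18 in FR13A and -5.49, -5.06 and -6.04 in Goda Heenati. Every Goda Heenati array lay above every FR13A array, by at least 20.3-fold between the control means (adjusted p = 6.31e-06) and at least 6.86-fold between the submerged means (adjusted p = 6.41e-05). With background removed by the normexp model in place of the scanner's correction, the submerged call was lost (-0.39, adjusted p = 0.817). One locus of 213 is 0.470% in each direction, where 0.52% of all loci and probes without a locus were detected in FR13A alone and 0.523% in Goda Heenati alone.

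Among the loci higher in FR13A in both treatments and well above background on all 12 arrays, Os09g0266300 had the largest difference in controls. Its levels in FR13A controls were -0.94, -0.96 and -0.50, and in Goda Heenati controls -4.55, -4.75 and -4.01. In submerged leaves they were -0.38, -1.70 and -0.21 in FR13A and -3.64, -3.69 and -3.53 in Goda Heenati. The genotypes did not overlap in either treatment, with a difference of 3.64 ± 0.37 in controls (adjusted p = 7.14e-05) and 2.86 ± 0.37 under submergence (adjusted p = 0.000399).

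Os09g0272500 differed to nearly the same extent with and without submergence. It stood at -0.77, -1.22 and -1.33 in FR13A controls and at -3.16, -3.94 and -3.96 in Goda Heenati controls. Its submerged levels were -1.16, -1.11 and -1.41 in FR13A and -3.30, -4.25 and -4.25 in Goda Heenati. The differences were 2.58 ± 0.32 (adjusted p = 0.000322) and 2.70 ± 0.32 (adjusted p = 0.000208), and the change with submergence was -0.12 in FR13A and -0.25 in Goda Heenati, neither past the test.

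Os09g0298200 combined a genotype difference with a fall in both genotypes, and was the 1 locus of the 24 measured by more than 1 probe that passed the filter. FR13A read 0.68, 0.28 and 0.95 in controls and -0.76, -0.09 and -0.54 under submergence. Goda Heenati read -1.40, -1.42 and -1.65 in controls and -2.87, -2.94 and -2.94 under submergence. FR13A was thus higher by 2.13 ± 0.24 in controls (adjusted p = 0.000138) and by 2.46 ± 0.24 under submergence (adjusted p = 4.9e-05). Under submergence the locus fell by 1.1 ± 0.24 in FR13A and 1.43 ± 0.24 in Goda Heenati (adjusted p = 0.00706 and 0.0018).

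The other 4 loci higher in FR13A in both treatments were Os09g0264600, Os09g0267800, Os09g0272300 and Os09g0299300. Os09g0264600 was higher by 1.71 ± 0.29 in controls and 2.76 ± 0.29 under submergence, and Os09g0299300 by 1.90 ± 0.36 and 3.07 ± 0.36, with 1 of 3 submerged Goda Heenati arrays well above background. Os09g0267800 had the smallest differences of those measured on all 12 arrays, at 1.1 ± 0.26 in controls (adjusted p = 0.021) and 1.51 ± 0.26 under submergence. Its call in controls was lost when any 1 of 3 arrays was left out (FR13A control replicate 3 or Goda Heenati control replicate 2 or 3), with adjusted p up to 0.0895. Os09g0272300 was well above background on no Goda Heenati array and on 5 of 6 FR13A arrays, and FR13A was at least 2.75-fold higher in controls and at least 2.81-fold higher under submergence, both calls lost with normexp (1.16 and 1.55).

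Of the loci lower in FR13A, Os09g0268600 was not detected in FR13A controls but was in submerged FR13A. FR13A controls read -9.38, -7.18 and -9.02, none of them well above background, and Goda Heenati controls -2.08, -2.38 and -4.03. In submerged leaves FR13A read -4.82, -5.86 and -6.31 and Goda Heenati -0.82, -1.17 and -1.51. The genotypes were apart on every array, with Goda Heenati at least 33.8-fold higher in controls (adjusted p = 0.000176) and a difference of -4.50 ± 0.66 under submergence (adjusted p = 0.000896).

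Os09g0270700 was likewise low in FR13A, at -7.52, -7.48 and -8.70 in controls and -6.95, -6.71 and -8.71 under submergence. In Goda Heenati it stood at -3.48, -3.40 and -4.00 in controls and -2.83, -3.04 and -3.25 under submergence. The bound in controls was at least 18.3-fold (adjusted p = 0.000214), and the difference under submergence was -4.42 ± 0.51 (adjusted p = 0.000163), where 1 of 3 FR13A arrays was well above background.

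Os09g0309900, farther right, was measured on all 12 arrays. FR13A read -5.70, -4.92 and -5.43 in controls and -3.06, -3.61 and -5.09 under submergence, and Goda Heenati read -1.36, -1.61 and -1.96 and then -0.50, -0.73 and -1.42. FR13A was below Goda Heenati without overlap, by -3.71 ± 0.47 in controls (adjusted p = 0.000378) and -3.04 ± 0.47 under submergence (adjusted p = 0.00137).

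Os09g0294300 was the nearest locus to the right of SUB1 called in both treatments. In controls FR13A read -5.97, -5.42 and -5.90 and Goda Heenati -3.0, -2.83 and -3.46, a difference of -2.67 ± 0.23 (adjusted p = 2.37e-05). In submerged leaves FR13A read -8.27, -8.09 and -8.27, none well above background, and Goda Heenati -3.99, -4.34 and -4.26. Goda Heenati was at least 15.3-fold higher under submergence (adjusted p = 1.33e-06), a call lost with normexp (-1.14, adjusted p = 0.238). Both genotypes fell with submergence, FR13A by at least 5.15-fold (adjusted p = 8.36e-05) and Goda Heenati by 1.1 ± 0.23 log2 units (adjusted p = 0.00681).

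Os09g0277800 and Os09g0273800 were the least firmly called of those lower in both. Os09g0277800 differed by -2.11 ± 0.48 in controls (adjusted p = 0.0181) and -1.86 ± 0.48 under submergence (adjusted p = 0.0308). Leaving out any 1 of 3 control arrays or 5 submerged arrays ended those calls, with adjusted p up to 0.0744 and 0.113. Os09g0273800 was well above background on the 3 Goda Heenati control arrays alone, which were at least 3.34-fold above FR13A controls (adjusted p = 0.00441), a call lost with normexp (-0.65, adjusted p = 0.862). It passed the filter through those arrays alone, so the direction of this difference was partly fixed by the filter. Its submerged call (adjusted p = 0.022) set 2 groups below background against each other and was lost without any 1 of 4 submerged arrays, so no fold is given, and normexp turned its sign (0.51, from a fitted -1.30).

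**Figure D2:**
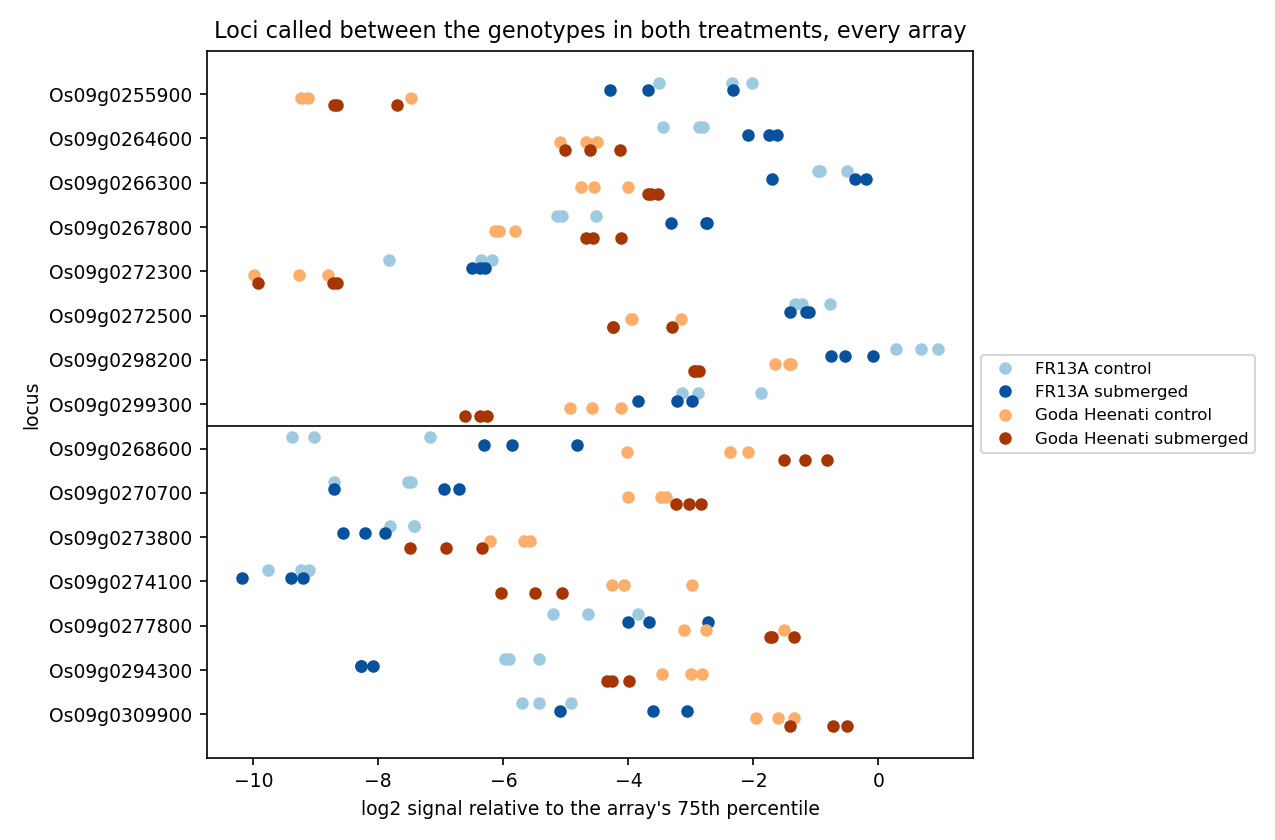
Level on every array (x axis, log2 signal relative to the 75th percentile of the array) of the 15 loci called between the genotypes in both treatments, with the 8 higher in FR13A above the line and the 7 lower below it. Each point is 1 array, and within a treatment the FR13A and Goda Heenati arrays of each locus do not overlap.

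Some loci were called in a single treatment. Os09g0271900 read -7.37, -5.93 and -5.30 in FR13A controls and -1.84, -2.38 and -1.41 in Goda Heenati controls, a difference of -4.32 ± 0.89 (adjusted p = 0.00932). In submerged leaves both genotypes read between -7.40 and -3.82 and overlapped, with a difference of 0.25 ± 0.89. In each group other than Goda Heenati controls 2 of 3 arrays were well above background. The test of the change in that difference gave 4.58 ± 1.26 (adjusted p = 0.384), so it was not shown to depend on treatment. Os09g0275200 was called under submergence, at least 3.86-fold higher in FR13A (adjusted p = 0.0262), with no Goda Heenati array well above background. Leaving out any 1 of 4 submerged arrays ended that call (FR13A replicate 1 or 2, Goda Heenati replicate 2 or 3), with adjusted p up to 0.101. A fit with the replicate block called it in controls too (2.06, adjusted p = 0.0025 against 0.181 without). Os09g0262200 was lower in FR13A under submergence by -1.19 ± 0.28 (adjusted p = 0.0184), a call lost without FR13A submerged replicate 1 or 2 or Goda Heenati submerged replicate 3. Os09g0278200 was at least 3.27-fold lower in FR13A under submergence (adjusted p = 0.00319), a call lost with normexp (-0.07).

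Because each slide held every group, the difference could also be read within a slide. For the called loci the sign and the lack of overlap follow largely from their selection on the same arrays and are no further support. Their median absolute difference on slides 1, 2 and 3 was 2.44, 2.71 and 2.62 in controls and 2.81, 2.87 and 3.22 under submergence. Of all 155 loci, groups did not overlap at 45 in controls (FR13A higher at 25 and lower at 20) and at 56 under submergence (27 and 29), against 20.1% and 25.2% of all genes. Of the 24 loci called in either treatment, 10 were well above background on all 12 arrays and 11 had at least 1 group with no such array. Beyond the cases given above, normexp ended the call of Os09g0267800 in controls (0.79) and those of Os09g0262200, Os09g0275200 and Os09g0277800 under submergence (-0.47, 1.68 and -1.61).

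Along the interval the called loci were unevenly placed. The bin from Os09g0260000 to Os09g0269999 had 5 of 24 tested loci called in controls and 5 under submergence, and the next, to Os09g0279999, had 7 and 8 of 31. These adjoining bins together held 15 of the 24 loci called in either treatment and 10 of the 15 called in both, among 55 tested. The other 100 tested loci held 9 and 5. The bins were drawn without regard to expression, but this pair was singled out after its counts were seen and was not tested.

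The remaining bins were sparser than this pair. Over all genes 8.45% were called in controls and 10.2% under submergence. The first bin, from Os09g0250000, had 1 of 19 loci called in each treatment, which was Os09g0255900 in both. The bin that holds SUB1, from Os09g0280000 to Os09g0289999, had 1 of 21 called in controls and 0 under submergence. In the submerged comparison 5 of these 21 loci had an unadjusted limma p under 0.05, near the share over all genes (4650 of 22729). From Os09g0290000 the counts were 3 and 4 of 28 (10.7% and 14.3%, above the shares over all genes), then 1 and 1 of 18, and 1 and 1 of 14 in the last bin.

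Regions of the same span in locus numbers on both sides, which need not be equal in length, were compared. The left flank (Os09g0180000 to Os09g0249999) had 6 of 30 tested loci called in controls and 7 under submergence (20.0% and 23.3%). The right flank (Os09g0320000 to Os09g0389999) had 21 and 36 of 165 (12.7% and 21.8%). Both flanks thus had larger shares called than the interval, at 12.3% and 12.9%. The median absolute difference was 0.32 and 0.48 in the left flank and 0.47 and 0.56 in the right, against 0.40 and 0.45 in the interval. The rest of chromosome 9, both flanks included, had 68 and 112 of 1053 called (6.46% and 10.6%). Over the 12 chromosomes the share called in controls ran from 4.77% (chromosome 3) to 15.6% (chromosome 11), so the 12.3% of the interval lay inside the range of whole chromosomes.

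**Figure D3:**
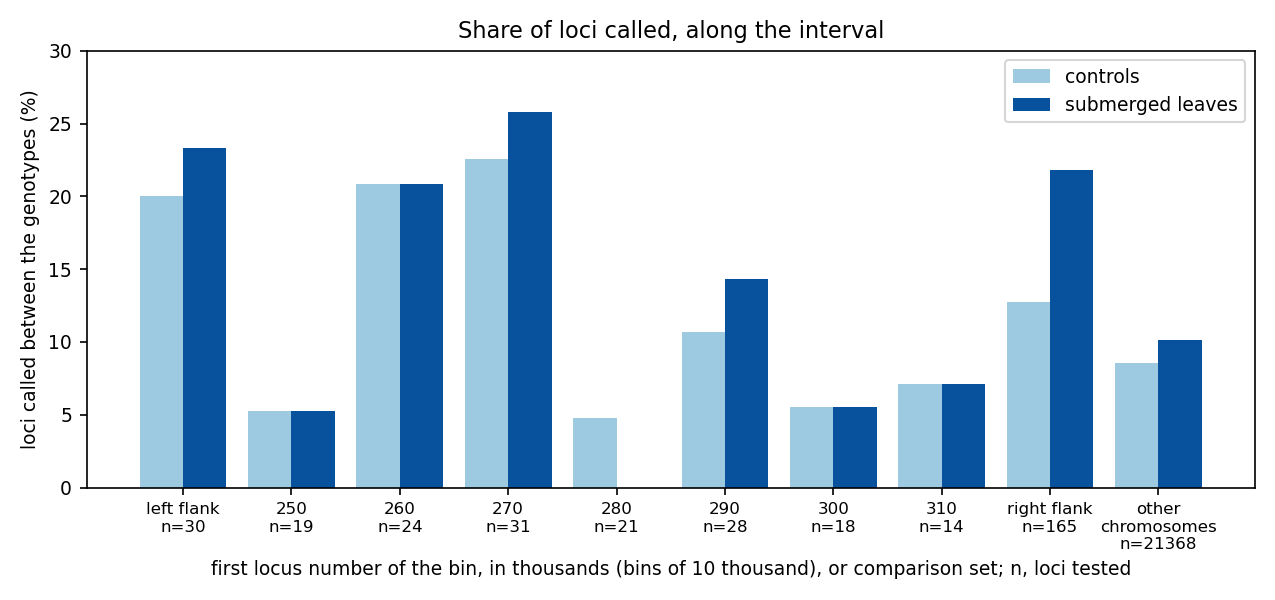
Percent of tested loci called between FR13A and Goda Heenati (y axis) in controls and in submerged leaves, for the 7 bins of 10000 locus numbers, both flanks and all other chromosomes (x axis, with the number of loci tested). The bins starting at Os09g0260000 and Os09g0270000 reach 20.8% to 25.8%, the bin with SUB1 4.76% and 0%, and the flanks 12.7% to 23.3%.

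In the bin that holds SUB1, the 1 locus called between the genotypes was Os09g0286800, whose number falls between those of SUB1C and SUB1B. For comparison, SUB1C differed between the genotypes by 0.33 ± 0.33 in controls and 0.01 ± 0.33 under submergence, and SUB1B by 0.59 ± 0.84 and 0.09 ± 0.84, none past the test.

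Os09g0286800 was raised by submergence in both genotypes. FR13A read -4.79, -3.41 and -4.04 in controls and -1.12, -1.0 and -1.72 under submergence. Goda Heenati read -7.23, -5.73 and -6.42 in controls, 2 of 3 well above background, and -2.36, -1.56 and -2.96 under submergence. Submerged and control arrays did not overlap in either genotype, with a rise of 2.80 ± 0.49 in FR13A (adjusted p = 0.00243) and 4.17 ± 0.49 in Goda Heenati (adjusted p = 0.000248). FR13A was higher in controls by 2.38 ± 0.49 (adjusted p = 0.00919), and under submergence the difference was 1.01 ± 0.49 (adjusted p = 0.282). The difference between the responses, -1.37 ± 0.69, did not pass the test (adjusted p = 1), so the larger rise in Goda Heenati was not shown. SUB1C rose by 1.86 ± 0.33 in FR13A and 2.18 ± 0.33 in Goda Heenati in the same fit, with 1 submerged array of each genotype saturated. SUB1B, saturated on 1 array of every group, gave 1.33 ± 0.84 and 1.82 ± 0.84 (adjusted p = 0.276 and 0.141), which were called with the replicate block (adjusted p = 0.0464 and 0.0143). Both SUB1B responses were also called when saturated spots were left out.

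The 6 tested loci next to SUB1 on each side, Os09g0286800 apart, showed no called genotype difference in the limma fit, where 12% of all genes were called in either treatment. To the left, Os09g0284200, Os09g0284300, Os09g0284400, Os09g0284600, Os09g0285100 and Os09g0286400 differed by -0.48 to 0.45 in controls and -0.30 to 1.04 under submergence. To the right, Os09g0287300, Os09g0287500, Os09g0288700, Os09g0289800, Os09g0290200 and Os09g0291000 differed by -0.85 to 0.19 in controls and -1.05 to 0.70 under submergence. With the replicate block, Os09g0288700 was called lower in submerged FR13A (-1.03, adjusted p = 0.00964 against 0.0701 without). Among these 12 loci submergence raised Os09g0284300 and Os09g0290200 in both genotypes. Os09g0284300 rose by 1.69 ± 0.31 in FR13A and 1.18 ± 0.31 in Goda Heenati (adjusted p = 0.00334 and 0.0198), and Os09g0290200 by 1.70 ± 0.30 and 1.0 ± 0.30 (adjusted p = 0.00242 and 0.0311).

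The second question was how loci of the interval responded to submergence. In FR13A 36 of 155 loci (23.2%) were called, 15 higher and 21 lower in submerged leaves, where 21.8% of all genes were called (10% higher and 11.8% lower). In Goda Heenati 26 loci (16.8%) were called, 10 higher and 16 lower, where 20.6% of all genes were called (9.09% higher and 11.5% lower). Both genotypes shared 7 loci that rose and 10 that fell (6.2% and 8.64% of all genes). A further 1 was called in opposite directions, 18 were called in FR13A alone and 8 in Goda Heenati alone, against 0.0264%, 6.95% and 5.73% of all genes. Control and submerged arrays did not overlap at 58 loci in FR13A and 63 in Goda Heenati, against 40.5% and 42.3% of all genes. The share called was slightly above that of all genes in FR13A and below it in Goda Heenati. With the replicate block the FR13A share was 27.7%, slightly below the 28.3% of all genes, so its direction depended on the fit. Calls in FR13A alone made up a larger share than over all genes, and shared rises and falls made up smaller shares. None of these shares was tested. The responses of the 155 loci in the genotypes correlated with a Pearson coefficient of 0.68 and a Spearman coefficient of 0.74, against a Pearson coefficient of 0.88 over all genes. These are descriptions over loci that share arrays and slides.

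Among the loci that fell in both genotypes and were measured on all 12 arrays, Os09g0272000 fell furthest in FR13A. FR13A read 0.06, -1.44 and 1.14 in controls and -4.68, -3.82 and -3.60 under submergence. Goda Heenati read 0.51, 0.54 and 1.38 in controls and -4.14, -3.85 and -4.10 under submergence. Every submerged array was below every control array, with a difference between the means of -3.95 ± 0.56 in FR13A (adjusted p = 0.000792) and -4.84 ± 0.56 in Goda Heenati (adjusted p = 0.00023).

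Os09g0308600 fell to a like extent. Its FR13A levels were -0.64, -1.07 and -0.79 in controls and -4.72, -4.86 and -3.79 under submergence, and those of Goda Heenati 0.56, -0.50 and 0.14 and then -3.68, -3.95 and -4.45. The responses were -3.62 ± 0.36 (adjusted p = 0.000101) and -4.09 ± 0.36 (adjusted p = 5.29e-05). Os09g0283600, near SUB1 on the left, fell by 1.51 ± 0.29 in FR13A and 2.22 ± 0.29 in Goda Heenati (adjusted p = 0.00431 and 0.000522).

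Of the loci that rose in both genotypes, Os09g0286800 is described above. Os09g0279500 rose by 2.35 ± 0.55 in FR13A (adjusted p = 0.0104) and 1.71 ± 0.55 in Goda Heenati (adjusted p = 0.0441), the latter lost when any 1 of 9 arrays was left out. Os09g0267800, one of the loci higher in FR13A, rose by 1.97 ± 0.26 in FR13A and 1.55 ± 0.26 in Goda Heenati (adjusted p = 0.000534 and 0.00184).

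Several large responses were called in 1 genotype. Os09g0268600 rose at least 4.73-fold in FR13A (adjusted p = 0.00957), and in Goda Heenati its response was 1.66 ± 0.66 (adjusted p = 0.0903, or 0.0395 with the replicate block). Os09g0304800 rose by 2.35 ± 0.72 in FR13A (adjusted p = 0.0339) and gave 2.07 ± 0.72 in Goda Heenati (adjusted p = 0.0571, or 0.0358 with the block). Os09g0250700 fell by 3.30 ± 0.85 in FR13A (adjusted p = 0.0166) and gave -2.53 ± 0.85 in Goda Heenati (adjusted p = 0.052, or 0.011 with the block). None of these differences between the genotypes passed the test of the difference between the responses. The FR13A calls of Os09g0304800 and Os09g0250700 were lost when any 1 of 4 and 3 FR13A arrays was left out.

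Os09g0294000 gave a response in FR13A with little movement in Goda Heenati. FR13A read 1.32, -2.24 and -0.68 in controls and -3.54, -3.40 and -3.76 under submergence, a fall of 3.03 ± 0.84 (adjusted p = 0.0231) that was lost without any 1 of 5 FR13A arrays. Goda Heenati read -0.96, -3.32 and -1.58 and then -2.14, -2.50 and -0.92, a difference of 0.10 ± 0.84. The difference between the responses was -3.14 ± 1.19 (adjusted p = 0.876) and did not pass. In Goda Heenati alone, Os09g0272900 rose by 3.15 ± 0.66 (adjusted p = 0.00614, with 2 of 3 controls well above background), Os09g0271900 fell by 4.17 ± 0.89 (adjusted p = 0.00684) and Os09g0262000 fell at least 6.72-fold (adjusted p = 0.0445). The call of Os09g0262000 was lost when any 1 of 9 arrays was left out. With normexp the Goda Heenati calls of Os09g0262000, Os09g0279500 and Os09g0283600 were lost (-1.01, 1.61 and -1.22).

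**Figure D4:**
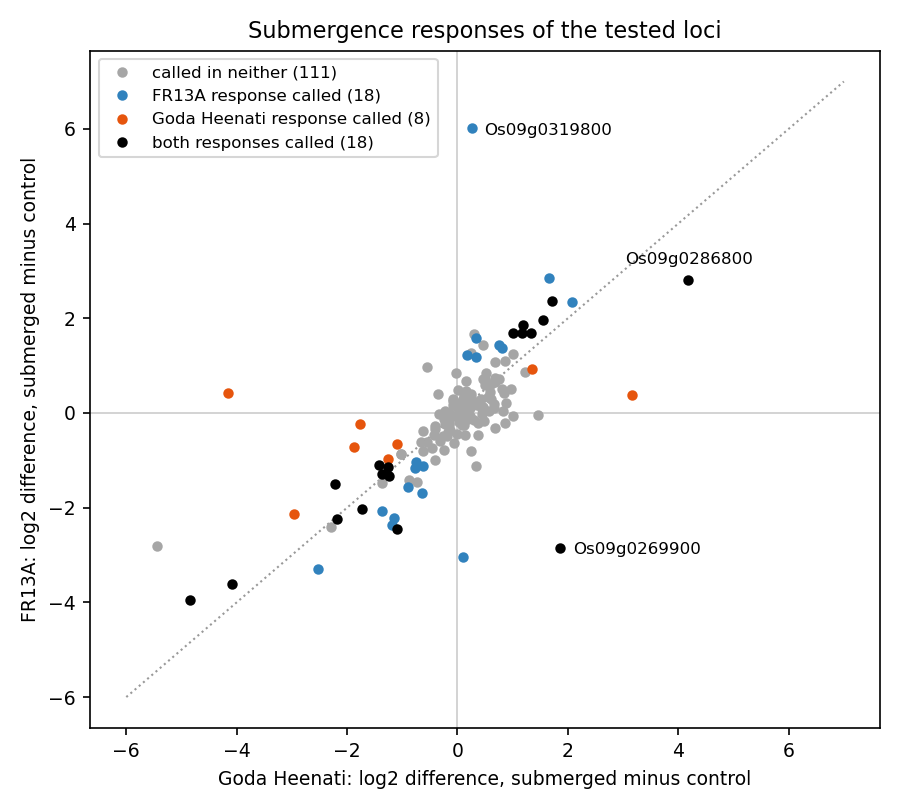
Submergence response of the 155 tested loci in Goda Heenati (x axis) and FR13A (y axis), each as the log2 difference of submerged from control, with 1 point per locus coloured by the response called. The dotted line marks equal responses, and the labelled points are Os09g0286800 and the loci with a called difference between responses, Os09g0269900 (-2.85 in FR13A, 1.86 in Goda Heenati) and Os09g0319800 (6.01 and 0.26 as fitted).

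The third question was whether the genotypes responded differently. Of the 155 loci 2 passed the test of the difference between the responses, 1 in each direction, and 21 genes (0.0924%, with 0.0396% higher and 0.0528% lower) did so over all genes tested. Os09g0269900 read -3.70, -4.05 and -4.27 in FR13A controls and -6.71, -6.99 and -6.86 in submerged FR13A, 1 of these 3 well above background. In Goda Heenati it read -8.48, -8.49 and -8.32 in controls, none well above background, and -6.24, -6.66 and -6.79 under submergence, 2 of 3 well above background. Levels thus differed between the genotypes in controls, FR13A being at least 16.7-fold higher (adjusted p = 4.87e-07), and lay between -6.99 and -6.24 on all 6 submerged arrays, where the genotype difference was -0.29 ± 0.22. The locus fell by 2.85 ± 0.22 in FR13A (adjusted p = 2.32e-05) and rose at least 2.83-fold in Goda Heenati (adjusted p = 0.000263), and the fitted difference between the responses was -4.71 ± 0.31 (adjusted p = 0.000415). With normexp that difference was -1.88 and was not called (adjusted p = 1), nor was either response.

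Os09g0319800, at the right end of the interval, was well above background in submerged FR13A alone. Submerged FR13A read -2.17, -4.32 and -3.18, and FR13A controls -9.10, -9.00 and -9.60. Goda Heenati read -8.71, -9.19 and -10.01 in controls and -8.60, -8.61 and -9.92 under submergence. The 3 submerged FR13A arrays stood above the other 9, at least 29.8-fold above FR13A controls (adjusted p = 6.95e-05) and at least 25.3-fold above submerged Goda Heenati (adjusted p = 4.61e-05). The locus passed the filter through submerged FR13A alone, so its being highest there was partly fixed by the filter. The fitted difference between the responses was 5.75 ± 0.79 (adjusted p = 0.0315), a call lost when any 1 of 8 arrays was left out, with adjusted p up to 0.122. With normexp it was 2.90 and also not called (adjusted p = 0.29).

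**Figure D5:**
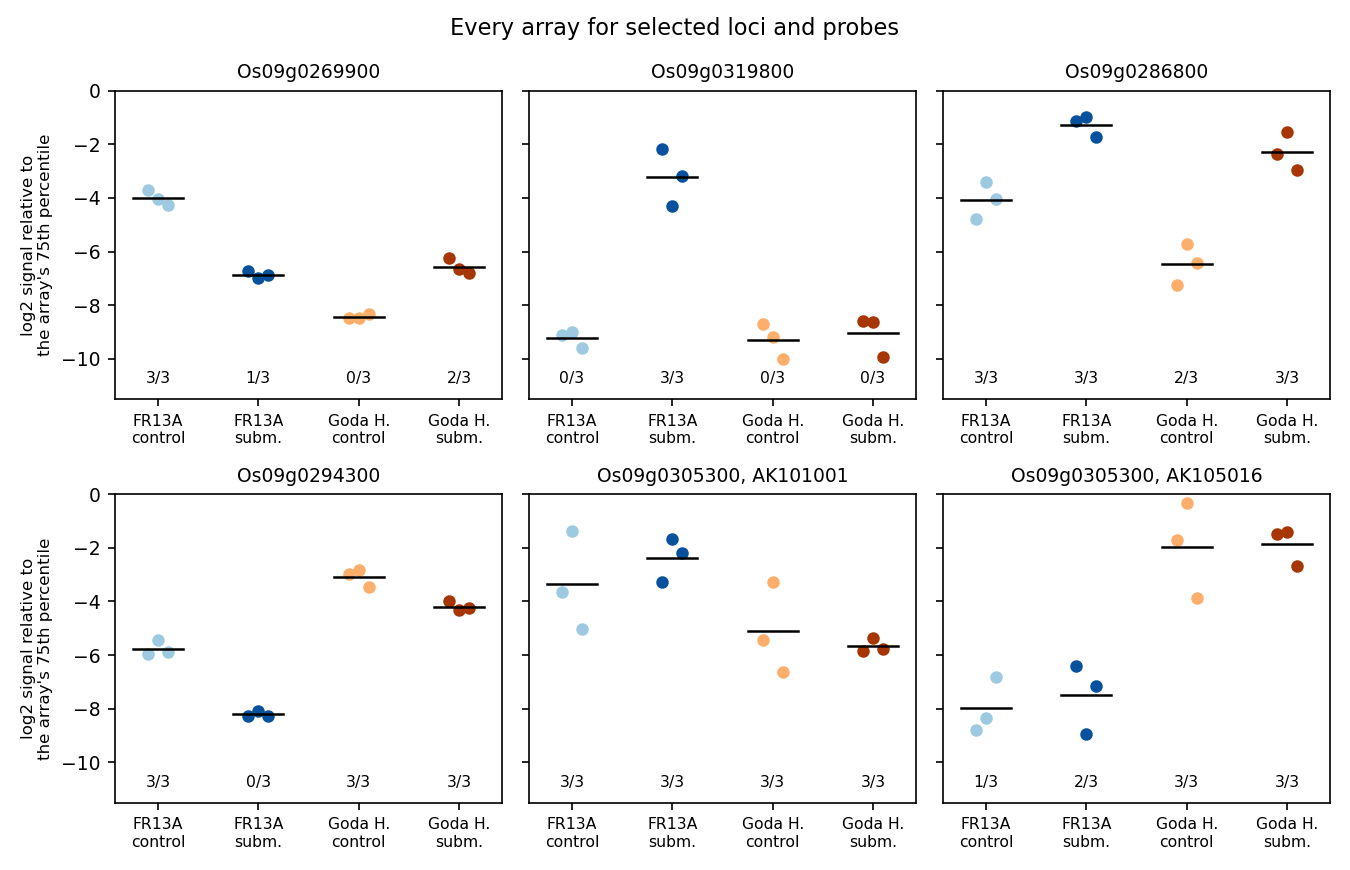
Level on every array (y axis, log2 signal relative to the 75th percentile of the array) in the 4 groups for 4 loci and for both probes of Os09g0305300. Each point is 1 array, lines are group means, and the numbers above the x axis give the arrays well above background, such as 3 of 3 in submerged FR13A and 0 of 3 in the other groups for Os09g0319800.

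How far a value depends on the probe could be checked where a locus had several. Over the 31 loci with more than 1 probe past the filter, the genotype difference varied between probes of a locus by a median of 0.13 in controls and 0.11 under submergence, and by at most 1.0 and 0.74 with 1 exception. The exception, Os09g0305300, was chosen after its values were seen. Its probe on cDNA AK101001, which stood for the locus, gave a difference of 1.77 ± 0.96 in controls and 3.28 ± 0.96 under submergence (adjusted p = 0.516 and 0.0595 in a fit of all probes). Its probe on cDNA AK105016 gave -6.01 ± 0.92 and -5.62 ± 0.92 (adjusted p = 0.00157 and 0.00226), the opposite direction.

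The array values of these probes show the same contrast. With the AK101001 probe FR13A controls read -3.64, -1.39 and -5.02 and Goda Heenati controls -5.43, -3.29 and -6.63. With the AK105016 probe they read -8.78, -8.36 and -6.81, 1 of 3 well above background, against -1.71, -0.34 and -3.87. A genotype difference in transcript level cannot be told apart from one in how an allele matches the probe, and 23 of the 24 loci called between the genotypes rest on 1 probe. Submergence responses compare a genotype with itself, and between probes of a locus they varied by a median of 0.14 in FR13A and 0.16 in Goda Heenati, at most 1.24 and 0.98.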

How the data were processed

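RNA of the 12 samples was labelled with Cy3 and scanned, and the authors extracted a spot intensity with Agilent Feature Extraction (version 10.5.1.1), per the submitters' processing notes. The deposited processed signal is an intensity with background already subtracted, as the headers of the files state. A second deposited table holds log2 values whose columns share 1 distribution (r of at least 0.9975 with each array's own log2 signal). How it was made is not stated there, and it served as an alternative.

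From the processed signal, control probes, 59 further probes named as controls and outlier-flagged spots were left out. Log2 signal had the 75th percentile of the array subtracted. Probes had to be well above background on every array of 1 group or more (33054 of 42418 were), and the brightest such probe on average represented its locus. This gave 22729 genes, 153 of them probes without a locus. With lmFit and eBayes, limma 3.58.1 under R 4.3.3 fitted 4 group means with 8 residual degrees of freedom, with Benjamini-Hochberg adjustment over all genes and two-sided tests. The fit was also run on simulated arrays with independent noise and no slide effect, so that run cannot show how the fit handles arrays paired by slide. The number of arrays limits the precision.

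Replicate numbers equal slides. Deviations from the group means correlated in each of the 18 pairs of arrays with the same number (r from 0.26 to 0.79, against -0.55 to 0.03 for 36 other pairs), so the number pairs the samples. The main counts come from the fit without this pairing. A fit with the number as a block was an alternative, which called more loci. In either treatment it called 35 of the 155 loci between the genotypes (22.6%, against 15.6% of all genes). The median SE of the 155 loci in controls was 0.24 with the block and 0.34 without. The block fit is given beside some of the loci whose calls it changed, and its counts are given below. Elsewhere, a difference not past the test in the main fit may be called with the block. Other alternatives were normexp (offset 50), quantile normalization, the deposited table, other filters on dim probes, the mean over probes, leaving out saturated spots, and leaving out each array. Normexp was planned on mean signals but run on median signals, the column available here, and on 3 submerged arrays its estimate of the mean background was below 0.

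The text names up to 10 called loci per direction of each genotype comparison, up to 5 per direction of each response, every locus called for the difference, loci detected in 1 genotype alone, and the 6 tested loci on each side of SUB1C and SUB1B. The interval, lists and comparisons were chosen with earlier results of these data known. Marker names and the order of loci come from general knowledge.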

Additional observations from a re-analysis of the deposited data

Results flagged for a closer look

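Submergence changed Os09g0269900 differently in the genotypes by the test of that difference, FR13A minus Goda Heenati, which gave -4.71 (adjusted p = 0.000415 in the limma fit). The direct values were a fall of 2.85 in FR13A and a rise in Goda Heenati. The fall ended at a level that was well above background on 1 of 3 arrays, and the rise began at one that was not well above background. Neither response was called with normexp. The test also separated the responses of Os09g0319800, at 5.75 (adjusted p = 0.0315), where the response was 6.01 as fitted in FR13A and 0.26 in Goda Heenati, with no Goda Heenati array well above background. In both cases at least 1 group had no array well above background, so the fitted sizes depend on signal near the floor of the array. Neither pattern was weighed further.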

How the results depend on the processing

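The counts of called loci were most affected by the handling of dim signal. Of the 155 tested loci, 118 were well above background on all 12 arrays. Apart from those with the replicate block, the counts below have no share of all genes beside them. They therefore do not show whether the interval still had a larger share called than all genes. Restricted to probes well above background on all 12 arrays, the counts were 8 in controls (from 19), 9 under submergence (from 20), 16 for the Goda Heenati response (from 26), 0 for the difference between responses (from 2, with fewer loci tested), 5 higher in both treatments (from 8) and 2 lower in both (from 7). With normexp they were 12 under submergence, 0 for the difference between responses and 3 lower in both, and Os09g0273800 turned to 0.51 under submergence. Taking a signal over the lowest well-above-background signal of an array as detection gave 2 loci in FR13A alone. With the replicate block the counts were 25, 29, 43, 36 and 2 for the 5 comparisons, 10 higher in both and 9 lower in both, while the shares of all genes called also rose, to 10.7%, 12.9%, 28.3%, 26.8% and 0.365% for the 5 comparisons. It ended no named call. Leaving out 1 array gave 16 to 20 in controls, 16 to 22 under submergence, 28 to 38 and 18 to 25 for the responses of FR13A and Goda Heenati, 1 to 2 for their difference, 7 to 8 higher and 5 to 8 lower in both, and 1 to 2 for detection in each genotype alone. Of the 61 named calls, 49 were kept when any 1 array was left out. Restriction to probes well above background on all 12 arrays left 34 of the 61 without a value. Among calls that had a value, normexp ended 18, quantile normalization 1, the unfiltered fit 2 and the other 5 alternatives 0, and 39 were kept wherever they had one. Except where given, the cause was not tested.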

Other observations

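The probe's source differed among the loci of the interval. Of 126 loci whose probe was designed on an mRNA, 101 were tested and 15 of these were called between the genotypes in either treatment, against 10.2% of the 16692 tested loci of that class on the whole array. Of 31 loci in the class that the array names COMBINER, 25 were tested and 7 called, against 29.2% of 1370 on the whole array. Of 56 in the class COMBINER_EST, 29 were tested and 2 called, against 13.7% of 4512. The files do not say what these class names stand for, and no test was made between the classes.

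Genotype differences and responses met at some loci. Of the 24 loci called between the genotypes in either treatment, 10 were called in neither submergence response, against 58.4% of the 2729 genes so called over the whole array. Os09g0255900, detected in FR13A alone, was one of these, with a response of -0.80 ± 0.63 in FR13A (adjusted p = 0.38 in the limma fit) and no array well above background in Goda Heenati. Os09g0274100, detected in Goda Heenati alone, fell there by 1.76 ± 0.41 with submergence (adjusted p = 0.0104 in the limma fit).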
